A study of Mus musculus with 6 samples.

Results

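The genes described here are the nuclear genes whose symbols begin with Nduf, Uqcr, Cox4 to Cox8 or Atp5, or are Sdha to Sdhd. By symbol they belong to the 5 complexes of oxidative phosphorylation. The rule found 92 of the 24346 gene symbols in the tables, of which 45 belong to complex I, 4 to complex II, 8 to complex III, 18 to complex IV and 17 to complex V by the stem of the symbol. Of the 92, 85 reached 1 FPKM in at least 3 of the 6 libraries and were tested.

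RNA was sequenced from splenic follicular B cells of mice aged 8 weeks, sorted as B220+ CD93- CD21lo CD23hi cells. There were 3 libraries from B6 control mice (WT) and 3 from mice homozygous for G9gl, a knock-in of both heavy and light chain genes that encode the germline precursor of an anti-dsDNA antibody found in lupus. The study asked what sets the anergic G9gl B cells apart. Whether the 3 libraries of a genotype stem from separate mice is not stated in the labels, so p-values measure the spread between these libraries, which may be technical.

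Complexes I to IV form the electron transport chain of the inner mitochondrial membrane. Complex I (NADH dehydrogenase) and complex II (succinate dehydrogenase) pass electrons to coenzyme Q, complex III passes them to cytochrome c, and complex IV (cytochrome c oxidase) passes them to oxygen. Complexes I, III and IV pump protons, and complex V (ATP synthase) uses the proton gradient to make ATP. Activated B cells are known to raise both this pathway and glycolysis. All complex II genes are nuclear, while the other complexes also need subunits encoded in mitochondrial DNA, which were not analysed here.

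Many promoters of these genes are known to bind the factors NRF1, GABPA of the ETS family, and YY1. The promoter windows of RefSeq (GRCm38.p6, 250 bases before to 50 after a transcript start) matched 73 of the 85 tested members, with 79 windows. The palindromic consensus of the NRF1 site, in capitals in the Atp5g2 sequence below, stood in 8.86% of the member windows, against 2.31% of the windows of all tested genes and 0.971% of all windows. AAGATGGCG, a match to the YY1 site, stood on either strand in 11.4%, 3.51% and 1.4% of these windows. CCGGAAG, a match to the ETS site, stood in 21.5%, 20.1% and 8.86%. The letters CCAAT were in 41.8% of member windows and 38.6% of those of tested genes, and TATAAA in 7.59% and 6.83%. The ETS and YY1 letters can share the bases AAG where one runs into the other. Among members that rose, 4.55% of 22 windows held the NRF1 letters and 4.55% the YY1 letters. Among those that did not pass, 10.5% and 14.0% of 57 windows did. The ETS letters stood in 22.7% and 21.1%. These differences between small numbers of windows were not tested.

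The upstream 250 bases of 3 members are shown because they are called below and passed in at least 13 of 14 other settings of the test. Letters that match NRF1, ETS or YY1 are in capitals. The Atp5g2 promoter holds an NRF1 match that starts at -42 from the transcript start. The Uqcrh promoter holds an ETS match at -10, which reads as the reverse complement of the letters above, and the Cox7a2l sequence holds no match to NRF1, ETS or YY1 letters. All are on the minus strand, at chr15:102671048-102671297, chr4:116075071-116075320 and chr17:83514334-83514583 (GRCm38.p6), and are printed 5′ to 3′ along the gene. The windows of Atp5g2 and Cox7a2l lie inside the spans that GENCODE vM21 gives these genes. For them the bases before the outermost start of that annotation are not shown, and the lack of a match in Cox7a2l holds for the printed window.
Atp5g2: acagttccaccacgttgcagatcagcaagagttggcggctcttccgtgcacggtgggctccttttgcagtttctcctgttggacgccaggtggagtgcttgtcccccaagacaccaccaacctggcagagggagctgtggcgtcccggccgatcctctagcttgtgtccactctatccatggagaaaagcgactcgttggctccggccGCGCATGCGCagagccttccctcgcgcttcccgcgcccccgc
Uqcrh: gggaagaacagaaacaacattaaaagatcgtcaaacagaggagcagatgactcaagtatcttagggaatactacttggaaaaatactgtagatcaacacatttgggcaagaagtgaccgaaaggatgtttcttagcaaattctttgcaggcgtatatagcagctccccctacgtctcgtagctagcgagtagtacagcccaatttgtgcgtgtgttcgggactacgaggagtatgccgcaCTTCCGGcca
Cox7a2l: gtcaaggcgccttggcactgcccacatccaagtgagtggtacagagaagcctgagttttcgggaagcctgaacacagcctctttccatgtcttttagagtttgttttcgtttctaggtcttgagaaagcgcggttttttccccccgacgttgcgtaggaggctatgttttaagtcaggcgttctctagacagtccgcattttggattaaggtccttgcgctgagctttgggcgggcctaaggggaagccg

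The libraries were close in depth. The spacing of low FPKM values gave an estimate of 10550000 to 11300000 fragments in WT and 10600000 to 12350000 in G9gl. The median tested member then rests on about 752 fragments in its shallowest library, and 3 members (Cox6b2, Ndufaf2 and Ndufaf5) on fewer than 30. B cell markers were high in every library, with a summed 8162 to 8483 FPKM over 7 genes in WT and 7491 to 7882 in G9gl, where Ms4a1, Cd79a, Pax5 and Fcer2a fell and Cd22 rose. Macrophage markers summed to 21.6 to 28.3 FPKM over 12 genes in WT and 52.5 to 61.3 in G9gl, with 8 of 10 tested higher. Erythroid markers summed to 41.5 to 43.4 FPKM in WT and 60.2 to 219.8 in G9gl, neutrophil markers to 2.11 to 7.78 and 14.4 to 34.1, and T cell markers to 4.26 to 6.36 and 5.78 to 6.84. Plasma cell markers, of which 2 of 4 tested were higher and 1 lower, summed to 127.7 to 142.4 and 143 to 152.5. Germinal centre markers, 2 of 2 tested higher, summed to 7.26 to 8.81 and 18.3 to 22.4. No marker was at 0 in all libraries. Most cell types express oxidative phosphorylation genes, and the part of other cells in the results below was not tested. In bulk RNA a smaller share of some cells and less RNA per cell cannot be told apart.

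Oxidative phosphorylation transcripts were slightly more abundant in G9gl on the scale of the deposited values, while their share of the summed FPKM overlapped with that of WT. The FPKM of the 92 genes summed to 17600, 16650 and 17490 in the WT libraries and to 19590, 19320 and 18470 in the G9gl libraries, a rise of 10.9% in the mean with no overlap. The FPKM of all genes in the tables also summed higher in G9gl, at 657759 to 671533 against 603054 to 611557. As a share of that sum, the members took 2.88%, 2.76% and 2.87% in WT and 2.92%, 2.88% and 2.81% in G9gl, and these ranges overlap.

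Gene by gene, 23 of 85 tested members were higher in G9gl, 0 were lower and 62 did not pass (limma on log2(FPKM + 1), Benjamini-Hochberg adjusted p under 0.05 over 10122 genes). At an unadjusted p under 0.05, 1 member, Ndufaf5, was lower. Of all tested genes 11.8% were called higher and 11.6% lower, against 27.1% higher among the members. All G9gl libraries stood above all WT libraries for 34 members, and below them for 1, Ndufb7, while 20.3% and 20.5% of all tested genes separated in these ways. With the replicate number as a block 16 members were higher and 0 lower, against 10.3% and 9.76% of all genes. After quantile normalization 11 members were higher and 1 lower, against 10.2% and 11.3% of all genes. With the dependence on GC content and length taken out 9 were higher and 0 lower, against 11.6% of all genes in each direction. The changes were small. The fold of the 23 called members ran from 1.12 for Cox5b to 1.26 for Atp5g2, and the median log2 fold change over the 85 was 0.12 against -0.002 over all tested genes.

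After rescaling of each library to TPM, which gives every library the same sum, the count turned to 4 higher and 6 lower. This rescaling moved the median of all tested genes to -0.13, and 7.21% of genes were then called higher and 24.6% lower. The 4 that rose were Atp5g2, Cox4i1, Cox7a2l and Uqcrh, and the 6 that fell were Ndufb7, Ndufa13, Ndufaf5, Sdha, Sdhc and Uqcrc1. All G9gl libraries then stood above all WT libraries for 12 members and below for 13, against 10.2% and 36.5% of all tested genes. Set against the median of all tested genes, the members were 0.12 higher on the log2 scale with FPKM as deposited and 0.11 higher with TPM. The distance was 0.051 after quantile normalization and 0.037 once the dependence on GC content and length was taken out.

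**Figure D1:**
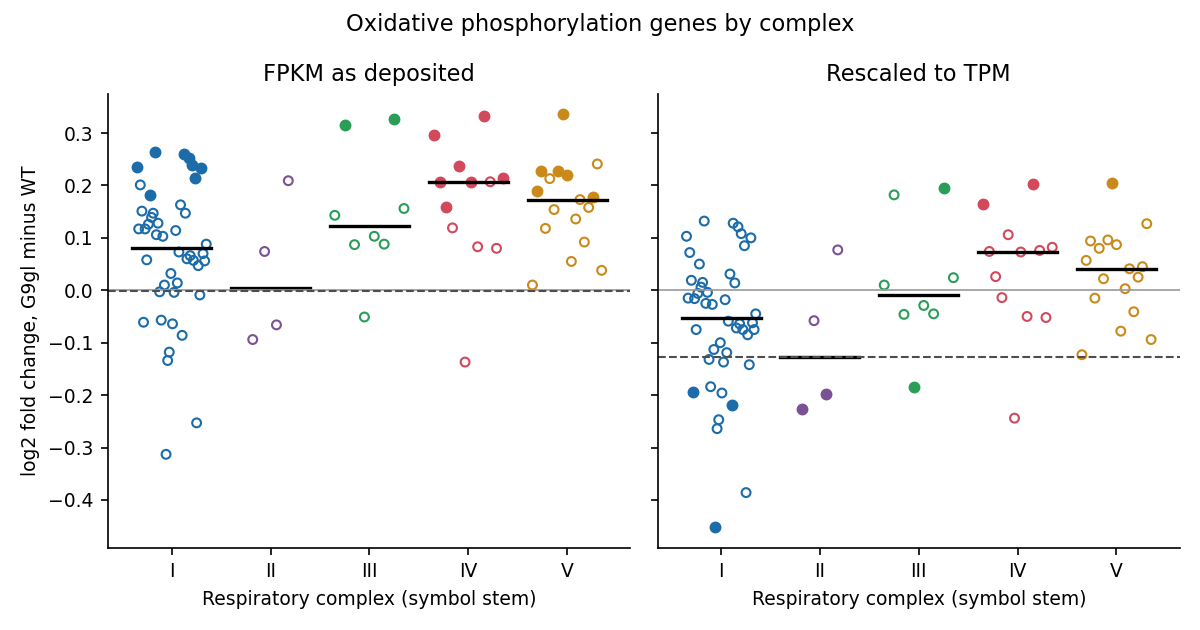
The log2 fold change (G9gl minus WT, vertical axis) of each of 85 tested members by complex, with FPKM as deposited on the left and rescaled to TPM on the right. Filled points passed at an adjusted p under 0.05, solid bars are medians and the dashed line is the median of all tested genes, which lies at -0.002 on the left and -0.13 on the right.

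The level of a gene went with its fold change, among members as among all genes. Over the 85 members the correlation of log2 fold change with log2 mean FPKM was 0.53 (Pearson) and 0.42 (Spearman), a description across genes that share the same 6 libraries. Of the 23 members above 300 FPKM, 10 were higher, or 43.5%, while 53.4% of all 283 genes at that level were called higher. The median log2 fold change there was 0.16 for members and 0.22 for all genes. Between 100 and 300 FPKM 28.9% of 38 members and 23.7% of 675 genes were higher, and between 30 and 100 FPKM 12.5% of 16 members and 11.9% of 2218 genes. None of the 8 members below 30 FPKM was called. The members' share of called genes was thus near that of equally abundant genes, and it was not tested whether they differ.

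**Figure D2:**
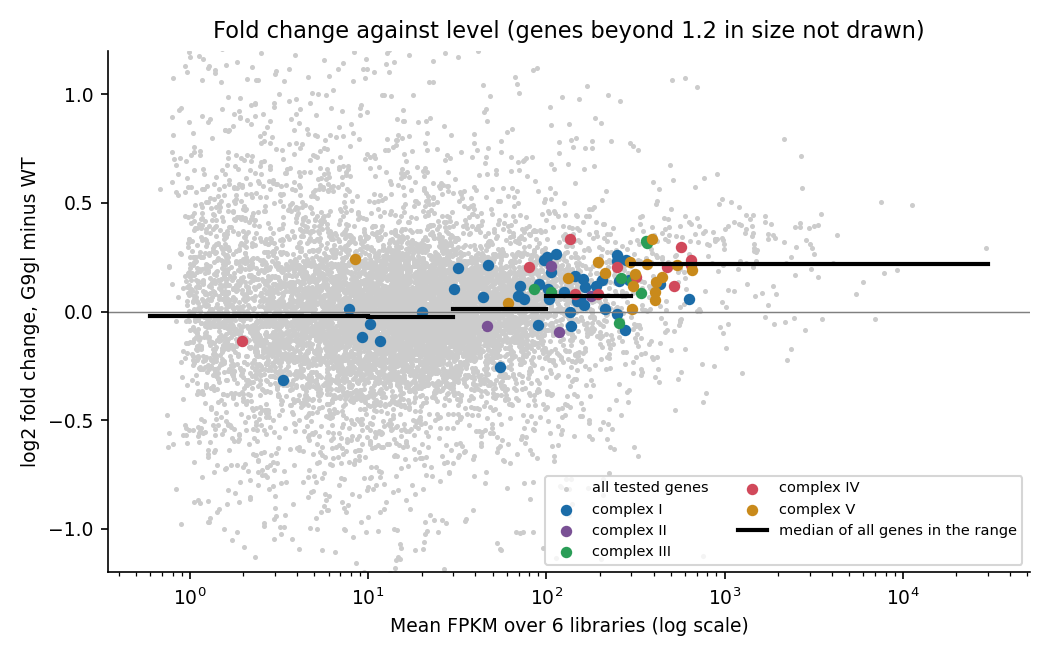
The log2 fold change (G9gl minus WT) against mean FPKM on a log axis, for all tested genes in grey and the members coloured by complex. Genes beyond 1.2 in size are not drawn, black bars are medians of all genes within 5 ranges of level, and the bar above 300 FPKM lies at 0.22, above the member median of 0.16 in that range.

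Transcript length went with the fold change too, weakly among members. Over 84 members the correlation of log2 fold change with log2 length was -0.21 (Pearson and Spearman). The members are short by annotation, with a median length of 707.5 bases against 2032.5 bases for all tested genes. Each gene's length here is the median over its annotated protein-coding transcripts, such as 651 bases for Ndufs1 and 2676 for Atp5g1. It may differ from the length of the transcript expressed, which was not checked. The median log2 fold change of all tested genes was 0.075 in transcripts of up to 700 bases, 0.069 up to 1000, 0.053 up to 1500, and 0.011, -0.040 and -0.096 in 3 classes of longer transcripts. The 41 members of up to 700 bases had a median of 0.14 and the 17 members between 1000 and 1500 bases 0.088. With GC content the members' fold change had a Pearson r of 0.02 over 84 genes. Many members are known to have processed pseudogenes, and values that share fragments with such copies are uncertain.

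The complexes differed in their medians, a difference that was not tested across genes. Complex IV had the highest median log2 fold change, 0.21, followed by complex V with 0.17, complex III with 0.12, complex I with 0.080 and complex II with 0.004. Of tested genes, 7 of 12 were higher in complex IV, 6 of 17 in complex V, 2 of 8 in complex III, 8 of 44 in complex I and 0 of 4 in complex II. With TPM the medians kept this order, at 0.074, 0.041, -0.009, -0.052 and -0.13, while after quantile normalization complexes I, III, IV and V lay 0.044 to 0.087 above the median of all genes and complex II at -0.026. Complexes III, IV and V also hold the more abundant transcripts, with a median of 282, 284 and 314 FPKM against 109.7 in complex I and 112 in complex II.

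A share within a library does not depend on any single scaling factor for that library. Complex I took 34.7%, 35.1% and 34.5% of the summed member FPKM in WT and 34.0%, 33.2% and 33.8% in G9gl. Complex IV took 21.6%, 21.1% and 21.7% in WT and 22.3%, 22.5% and 22.1% in G9gl. In each case the genotypes do not overlap, with a lower share of complex I and a higher share of complex IV in G9gl. Complex II was lower in the mean, with 2.48%, 2.578% and 2.625% in WT and 2.475%, 2.337% and 2.349% in G9gl, and replicate 1 of each genotype nearly touch. Complex V took 29.79%, 29.73% and 29.9% in WT and 29.98%, 30.38% and 30.08% in G9gl, a narrow gap. Complex III overlapped, at 11.2% to 11.46% in WT and 11.23% to 11.66% in G9gl. The difference in means was -1.16 percentage points for complex I, -0.174 for complex II, 0.149 for complex III, 0.843 for complex IV and 0.339 for complex V. With the GC and length trend removed complexes I, IV and V still did not overlap, and after quantile normalization each of the 5 complexes overlapped between genotypes.

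**Figure D3:**
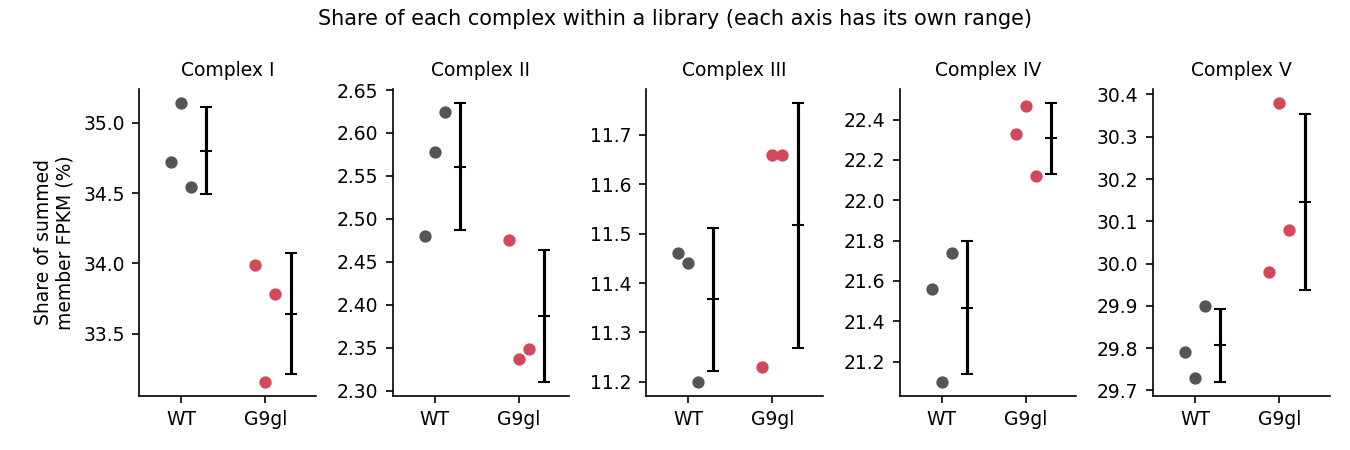
The share of each complex in the summed FPKM of the 92 members (vertical axis, percent) in each library, with the mean and SD of 3 libraries beside the points. Each panel has its own range, and complex I is lower and complex IV higher in all 3 G9gl libraries than in any WT library.

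The core subunits of complex I carry the electron path. Ndufs8, which holds iron-sulfur clusters, had 218, 228 and 243 FPKM in WT and 268, 274 and 267 in G9gl (log2 fold change 0.23 ± 0.053 SE, adjusted p 0.013). Every G9gl library exceeded every WT library, and the gene did not pass with TPM (adjusted p 0.19). The NADH-binding subunit Ndufv1 did not pass, with a log2 fold change of 0.070, nor did Ndufs7, with -0.009. Ndufs7 had 244, 248 and 256 FPKM in WT and 244, 244 and 256 in G9gl.

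Of 29 accessory subunits of complex I, which surround the core, 6 were higher and 23 did not pass. The 6 were Ndufa1, Ndufa5, Ndufa8, Ndufb8, Ndufc2 and Ndufs4, with log2 fold changes from 0.18 for Ndufa5 to 0.26 for Ndufa8. X-linked Ndufa1, a membrane arm subunit, had 250.4, 264 and 252 FPKM in WT and 318, 299 and 288 in G9gl (log2 fold change 0.24 ± 0.054, adjusted p 0.012). Ndufs4, a matrix arm subunit often mutated in Leigh syndrome, had 43.3, 43.5 and 43.1 FPKM in WT and 54.9, 49.1 and 47.5 in G9gl, and its adjusted p of 0.049 held in 2 of 14 other settings. None of the 6 passed with TPM.

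Among the accessory subunits that did not pass were some at high levels. Ndufa3, the most abundant complex I transcript, had 639, 597 and 622 FPKM in WT and 674, 617 and 644 in G9gl (adjusted p 0.46). After quantile normalization its log2 fold change was -0.17 (adjusted p 0.030). Ndufb7 had 283, 280 and 286 FPKM in WT and 275, 268 and 257 in G9gl. Its ranges do not overlap, with an adjusted p of 0.23 on FPKM and 0.0067 with TPM. Ndufs5 was higher in WT replicate 2, at 81.2 FPKM, than in the other libraries, which lay between 40.5 and 57.4.

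The 7 Ndufaf genes encode assembly factors that build complex I and are not part of it. None was called, and their median log2 fold change was -0.057, from -0.31 for Ndufaf5 to 0.10 for Ndufaf3. All but Ndufaf3 had a mean below 30 FPKM. Of all tested genes 9.58% under 10 FPKM and 8.02% between 10 and 30 FPKM were called higher, with medians of -0.02 and -0.026. Whether the assembly factors differ from genes of like level was not tested. Ndufaf5 had 4.41, 3.11 and 3.85 FPKM in WT and 2.84, 2.56 and 3.11 in G9gl (adjusted p 0.13, and 0.043 with TPM). Its lowest WT and highest G9gl library were both at 3.11. The most abundant assembly factor, Ndufaf3, stood at 25.7 to 36.5 FPKM.

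No gene of complex II, the entry point from the citric acid cycle, was called on FPKM. The catalytic flavoprotein Sdha had 119, 124 and 124 FPKM in WT and 127, 109 and 107 in G9gl, with G9gl replicate 1 apart from the other G9gl libraries (log2 fold change -0.094 ± 0.071, adjusted p 0.38). The iron-sulfur subunit Sdhb had 176, 165 and 179 FPKM in WT and 198, 184 and 167 in G9gl. The membrane anchors Sdhc and Sdhd had log2 fold changes of -0.066 and 0.21. Sdhd had 95.3, 92.0 and 108 FPKM in WT and 113, 110.4 and 118 in G9gl, which do not overlap (adjusted p 0.054, and 0.049 with the replicate number as a block). With TPM Sdha and Sdhc were lower (adjusted p 0.033 and 0.046) and Sdhd did not pass (adjusted p 0.43).

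Both genes called in complex III encode small subunits. Uqcrh, the hinge protein that contacts cytochrome c1, had 355, 304 and 311 FPKM in WT and 397, 420.5 and 398 in G9gl (log2 fold change 0.33 ± 0.065, adjusted p 0.0061). Uqcr11 had 297, 331 and 349.6 FPKM in WT and 382, 437.5 and 396 in G9gl (0.32 ± 0.073, adjusted p 0.013). Both genes separated the genotypes without overlap. Uqcrc1, a core protein, had 244, 266 and 272 FPKM in WT and 248, 251 and 254 in G9gl (-0.051 ± 0.055, adjusted p 0.54), and was lower with TPM (adjusted p 0.034). Uqcrb, which contacts coenzyme Q, had 367, 301 and 324 FPKM in WT and 372, 343 and 335 in G9gl (adjusted p 0.45). The Rieske protein gene Uqcrfs1 had 99.9 to 108.6 FPKM in WT and 109.2 to 110.6 in G9gl, which do not overlap, and did not pass (adjusted p 0.27).

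In complex IV, 6 of the 10 subunits expressed in most tissues were higher, namely Cox4i1, Cox5a, Cox5b, Cox6b1, Cox6c and Cox8a. Cox4i1, a subunit through which ATP is known to slow the enzyme, had 518, 488 and 530.1 FPKM in WT and 646, 646 and 595 in G9gl (log2 fold change 0.30 ± 0.054, adjusted p 0.0042). Cox5a had 235, 228 and 231 FPKM in WT and 267, 269.8 and 264 in G9gl, with little spread in either group (0.21 ± 0.045, adjusted p 0.010). Cox6b1, which faces the intermembrane space, had 627, 545 and 614 FPKM in WT and 718, 695 and 691 in G9gl (0.24 ± 0.059, adjusted p 0.018). Cox8a had 595, 591 and 601 FPKM in WT and 741, 714 and 626 in G9gl, where replicate 3 lay nearest to WT. Of these 6, Cox4i1 alone passed with TPM. Cox6a1, Cox7a2, Cox7b and Cox7c did not pass, with log2 fold changes of 0.080 to 0.21.

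Cox7a2l, also called SCAF1, encodes a factor that joins complexes III and IV into supercomplexes and is related to Cox7a2. It had 118, 115 and 125 FPKM in WT and 141, 158 and 154 in G9gl (log2 fold change 0.33 ± 0.061, adjusted p 0.0041), with no overlap. In C57BL/6 mice a shortened allele of this gene is known. Its paralog Cox7a2 had 154, 128 and 141 FPKM in WT and 158, 151 and 138 in G9gl (adjusted p 0.48). Cox7a2 took 56.6%, 52.4% and 52.8% of the Cox7a family's FPKM in WT and 52.0%, 48.6% and 47.3% in G9gl. These shares do not overlap, but the gap between WT replicate 2 (52.4%) and G9gl replicate 1 (52.0%) is narrow. The family sum includes Cox7a1, at 4.50 FPKM in G9gl replicate 1, and between Cox7a2 and Cox7a2l alone the genotypes overlap. The exact permutation p was 0.1, the smallest that 3 against 3 can give, and 0.35 after Benjamini-Hochberg adjustment over 7 shares. The Cox7a2l share was 43.4%, 47.3% and 46.9% in WT and 46.5%, 50.7% and 52.7% in G9gl, which overlap (exact permutation p 0.3).

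Tissue-restricted isoforms were at or near 0. Cox8b, Cox8c and Ndufa4l2 were listed at 0 in all 6 libraries, and Cox4i2, Cox6a2 and Cox7b2 reached at most 0.35 FPKM. Cox7a1, the heart and muscle form, had 0, 0.73 and 0.80 FPKM in WT and 4.50, 2.02 and 0 in G9gl. These 7 genes were not tested. Cox6b2, the testis form, was tested at 0.88 to 3.11 FPKM in WT and 1.21 to 2.60 in G9gl, values that rest on about 1.54 to 5.25 fragments a library (adjusted p 0.77). Ndufa4, named for complex I and since placed in complex IV, had 440.3, 404 and 400.8 FPKM in WT and 456, 463 and 439 in G9gl (adjusted p 0.12).

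**Figure D4:**
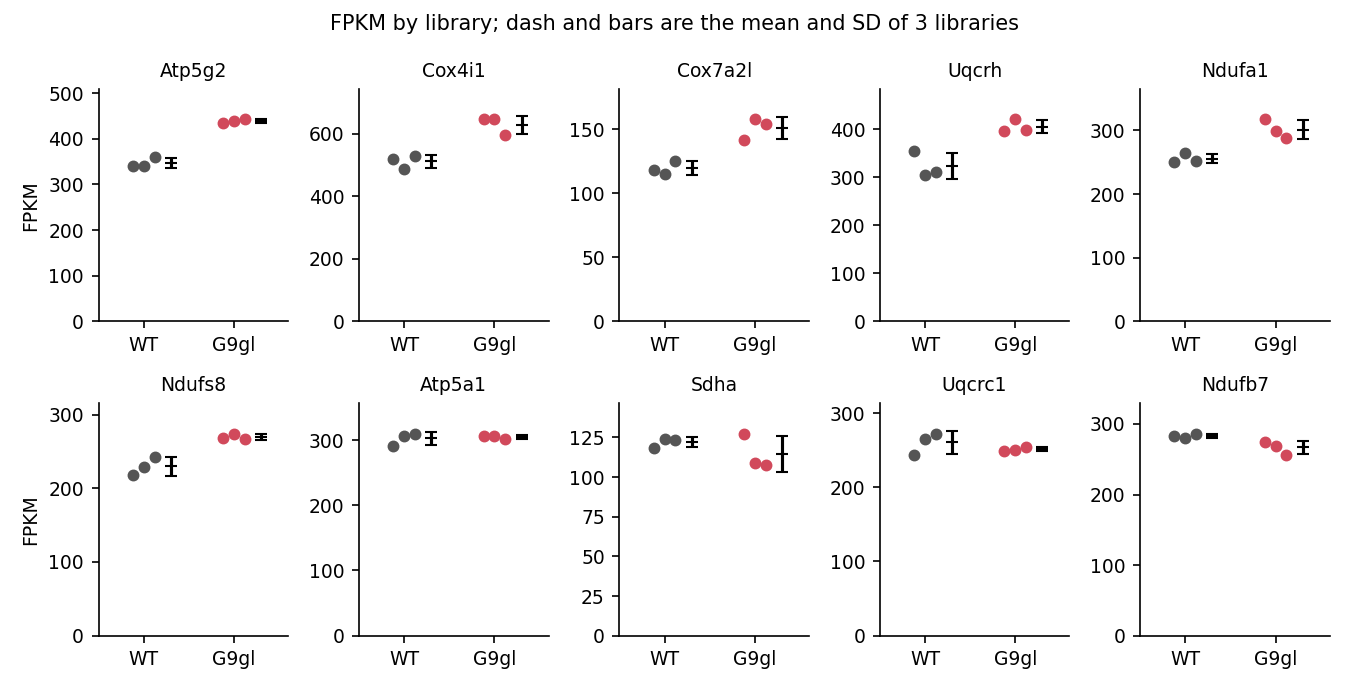
FPKM (vertical axis from 0) in each of the 3 WT and 3 G9gl libraries for 10 members, with mean and SD beside the points. In the first 6 genes every G9gl library exceeds every WT library, while Atp5a1, Sdha and Uqcrc1 overlap and Ndufb7 is lower in all 3 G9gl libraries.

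In complex V, counted by the stem of the symbol, 6 of 17 genes were called. The 17 include Atp5s and Atp5sl, which are related genes and not counted among its subunits by role. The log2 fold change was positive for 17 on FPKM, 12 with TPM and 11 after quantile normalization, against 5028, 3037 and 5010 of all 10122 tested genes. The c ring turns in the membrane as protons pass, and 3 genes encode its subunit with different import signals. All 3 were higher. Atp5g2 had 341, 341 and 360 FPKM in WT and 434, 439 and 443 in G9gl (log2 fold change 0.34 ± 0.046, adjusted p 8.8e-04). Atp5g1 had 184, 175 and 181 FPKM in WT and 207, 207 and 217 in G9gl (0.23 ± 0.050, adjusted p 0.0098). Atp5g3 had 329, 314 and 375 FPKM in WT and 397, 405 and 382 in G9gl (0.22 ± 0.068, adjusted p 0.044), and its call held in 4 of 14 other settings. Atp5g2 took 39.96%, 41.1% and 39.3% of the family's FPKM in WT and 41.8%, 41.8% and 42.5% in G9gl, which do not overlap (exact permutation p 0.1, adjusted 0.35). The shares of Atp5g1 and Atp5g3 overlapped (exact permutation p 0.4 each).

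Of 5 genes of the catalytic F1 head and central stalk, Atp5b and Atp5c1 were higher. The catalytic subunit gene Atp5b, the most abundant member, had 591, 603 and 641 FPKM in WT and 706, 706 and 681 in G9gl (log2 fold change 0.19 ± 0.049, adjusted p 0.022). Its log2 fold change was -0.022 after quantile normalization. Its partner in the head, Atp5a1, had 291, 307 and 310.1 FPKM in WT and 307, 306 and 301 in G9gl (0.010 ± 0.048, adjusted p 0.90), so that Atp5b passed on FPKM and Atp5a1 did not, a difference that was not itself tested, and neither passed with TPM (adjusted p 0.39 and 0.079). The rotor shaft gene Atp5c1 had 278, 258 and 275 FPKM in WT and 324, 312 and 313 in G9gl (0.23 ± 0.050, adjusted p 0.011). Atp5e had 534.5, 459 and 513 FPKM in WT and 587, 616 and 542 in G9gl and missed the threshold (adjusted p 0.054).

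The peripheral stalk holds the head still while the rotor turns. Of its 4 genes Atp5o was higher, with 202, 196 and 206 FPKM in WT and 231, 233 and 219.8 in G9gl (log2 fold change 0.18 ± 0.050, adjusted p 0.030). Atp5f1, Atp5h and Atp5j did not pass, with log2 fold changes of 0.055 to 0.15. Nor did the membrane subunits Atp5j2, Atp5k and Atp5l, at 0.092 to 0.17, or the related genes Atp5s and Atp5sl. Exons of 18 tested members overlap those of another tested gene, among them the called Cox4i1 (Emc8), Cox6c (Vps13b) and Atp5o (Donson). Emc8 and Vps13b lie on the opposite strand and Donson on the same strand. The libraries keep no strand, and how fragments in shared exons were split is not stated.

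The calls differed in how far they held. Atp5g2 and Cox7a2l (chromosome 15, 102662864 to 102672352, and chromosome 17, 83501918 to 83517330, GENCODE vM21 on GRCm38) passed in 14 of 14 other settings. Cox4i1 (chromosome 8, 120668222 to 120674207) and Uqcrh (chromosome 4, 116066965 to 116075071) passed in 13. Cox4i1 was lost after quantile normalization (adjusted p 0.088) and Uqcrh with the GC and length trend removed (adjusted p 0.085). With 1 library left out at a time, 9 of the 23 passed every time, among them Atp5g2, Cox7a2l, Cox4i1, Uqcrh, Atp5c1, Atp5g1, Cox5a and Ndufa1, and 14 were lost at least once. The number of members higher fell from 23 to 12 without WT replicate 2, to 11 without G9gl replicate 2 and to 15 without G9gl replicate 1. Ndufs8 and Uqcr11 were lost without G9gl replicate 2, Cox6b1 without WT replicate 2 and Ndufb8 without WT replicate 1.

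**Figure D5:**
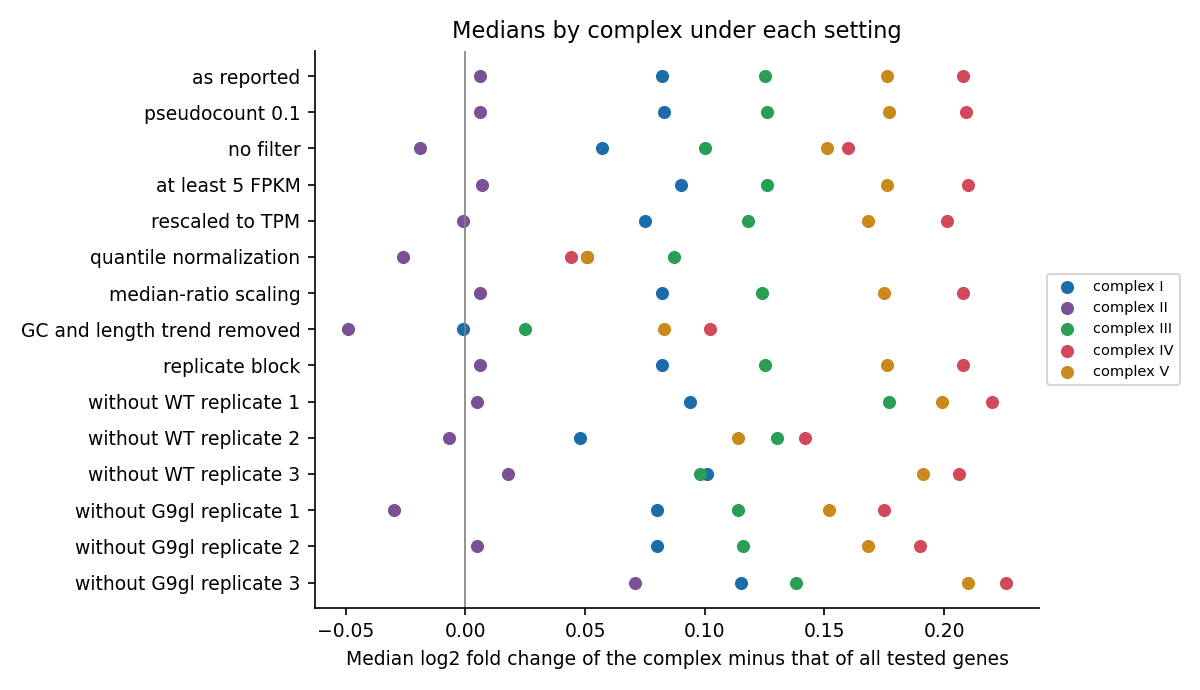
The median log2 fold change of each complex minus that of all tested genes (horizontal axis) under the reported setting and 14 others. Complexes IV and V lie to the right of complexes I and II in every row except after quantile normalization, where complex I lies at 0.051 and complex IV at 0.044.

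Genes that serve the same pathway but lie outside the symbol rule were read from the same fit. Of 14 tested carriers, cytochromes and related genes, 3 were higher (21.4%, against 11.8% of all genes) and 0 lower, with a median log2 fold change of 0.17. The adenine nucleotide carrier gene Slc25a4, which exchanges ADP and ATP across the inner membrane, had 68.5, 72.5 and 76.2 FPKM in WT and 102, 116 and 103 in G9gl (0.55 ± 0.069, adjusted p 5.1e-04). It passed with TPM as well (adjusted p 0.0019) and exceeded every member in size. Its paralog Slc25a5 (0.26 ± 0.054) and the complex III assembly gene Uqcc2 (0.29 ± 0.077) were also higher, and neither passed with TPM. Uqcc2 was also lost without WT replicate 2, G9gl replicate 1 or G9gl replicate 2 (adjusted p 0.053 to 0.065). Cyc1, the cytochrome c1 of complex III, had 140.3 ± 8.47 FPKM in WT and 158 ± 4.23 in G9gl (SD, n = 3 libraries each) and did not pass (adjusted p 0.063).

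Of 36 tested assembly factors, Atpaf1, a chaperone of the F1 head, and Cox17, a copper chaperone of complex IV, were higher and 0 lower, which is 5.56% against 11.8% of all genes. The log2 fold changes of the 2 were 0.32 ± 0.076 and 0.24 ± 0.067. Surf1, another complex IV factor, did not pass (adjusted p 0.061). Of 11 coenzyme Q synthesis genes Coq2 alone was called, at 0.31 ± 0.063 (adjusted p 0.0068), while Coq3 and Coq10b did not pass. None of these 3 calls held with TPM. Cox17 was also lost without any 1 library but WT replicate 3 or G9gl replicate 3 (adjusted p 0.059 to 0.10), and Atpaf1 without WT replicate 2 (adjusted p 0.062).

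Of 14 tested regulators of mitochondrial biogenesis, Myc was higher and Esrra lower, against 11.8% and 11.6% of all genes. Esrra, a nuclear receptor that drives oxidative phosphorylation genes, had 10.9, 10.2 and 9.57 FPKM in WT and 8.55, 6.48 and 7.59 in G9gl (log2 fold change -0.40 ± 0.11, adjusted p 0.029). Its call was lost when WT replicate 1, WT replicate 2, G9gl replicate 2 or G9gl replicate 3 was left out (adjusted p 0.067 to 0.098). Myc, which drives cell growth, had 46.1, 52.6 and 47.1 FPKM in WT and 98.4, 61.5 and 58.2 in G9gl (0.53 ± 0.17, adjusted p 0.047), with G9gl replicate 1 far above the others. Without that library its log2 fold change was 0.30, and its call was lost without any 1 of the WT libraries (adjusted p 0.082 to 0.12). Polg, the mitochondrial DNA polymerase gene, had -0.20 ± 0.070 (adjusted p 0.070). The median of this list was -0.094, and with TPM 0 were higher and 4 lower, where 24.6% of all genes were lower.

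Of 26 tested genes of mitochondrial import and inner membrane organisation, 5 were higher (19.2%, against 11.8% of all genes) and 1, Opa1, lower. The import genes Timm10, Timm23 and Tomm5, the cristae gene Apool and the prohibitin gene Phb2 rose, led by Timm10 at 0.47 ± 0.10 (adjusted p 0.0084). Opa1, which fuses inner membranes, had 14.0, 12.4 and 11.4 FPKM in WT and 9.47, 10.2 and 10.3 in G9gl (-0.31 ± 0.095, adjusted p 0.045). Apool was lost when WT replicate 1, WT replicate 3 or G9gl replicate 1 was left out (adjusted p 0.052 to 0.084). The Opa1 call was lost without any 1 library but WT replicate 3 (adjusted p 0.083 to 0.14). Tomm5 was lost when WT replicate 1 or 2, or else G9gl replicate 2 or 3, was left out (adjusted p 0.11 to 0.14). Phb2 was lost when WT replicate 1 or 3, or else G9gl replicate 2 or 3, was left out (adjusted p 0.050 to 0.10). With TPM 1 gene of this list was higher and 2 were lower, against 7.21% and 24.6% of all genes.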

How the data were processed

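RNA was measured in 6 libraries of sorted splenic B cells, 3 WT and 3 G9gl, grouped by title. Per the labels' protocols, total RNA was made into full-length cDNA with a SMART-Seq HT kit and into libraries with a Nextera kit. The submitters' processing notes name the build mm10 and the tools Cufflinks 2.2.1, TopHat2 2.0.13, SAMtools 0.1.19 and Bowtie2 2.2.3. The deposited values are FPKM of each gene, a unit read from these tools and the values, and the authors' annotation and filters are not stated in the sources used here. Neither immunoglobulin genes nor the 13 subunits encoded in mitochondrial DNA were analysed here. TPM are shares of the summed FPKM of the 24346 genes in the tables used.

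Genes that reached 1 FPKM in 3 or more libraries were tested with limma 3.58.1 in R 4.3.3 (lmFit, eBayes with trend) on log2(FPKM + 1), a scale that understates changes of low genes, with no covariate and p-values adjusted by Benjamini-Hochberg across the genes tested. Values are given per library, means with the SD, and log2 fold changes with limma standard errors. Depth was estimated from the steps between low FPKM values in genes with 1 transcript of at least 1500 bases, with the transcript shortened by 275 bases, the value that gave the most regular steps. Lengths, GC content and positions came from GENCODE vM21 (GRCm38, the assembly of mm10), matched by symbol for 96.2% of tested genes. Length and GC content were medians over the annotated protein-coding transcripts of a gene, not values of the transcript expressed. The length classes, the fragments per member and the removal of the GC and length trend rest on them.

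A result on 1 member is not reported here. Named members are those called, the 3 most abundant and the 2 extreme fold changes of each complex, and paralogs. Of other lists up to 3 genes with the smallest p were named. Genes named beside these were chosen after their values were seen. The members and lists were chosen with earlier results of these data known. Alternatives were another pseudocount (0.1), no filter or one of 5 FPKM, TPM, quantile normalization, median-ratio scaling, removal of a GC and length trend (splines with 5 degrees of freedom each), leaving out each library, and a block for replicate number.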

Additional observations from a re-analysis of the deposited data

How the results depend on the processing

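Rescaling to TPM left 4 members higher and 6 lower, with 0 higher and 3 lower in complex I, 2 lower in complex II, 1 and 1 in complex III, 2 higher in complex IV and 1 higher in complex V. Quantile normalization left 11 higher and 1 lower (Ndufa3), with 1 lower in complex I and 1, 2 and 2 higher in complexes III, IV and V. Removal of the GC and length trend left 9 higher (2, 0 and 3 in complexes I, III and IV), and no filter left 13 higher (5, 1 and 3). Set against all tested genes, the median of the members was 0.051 after quantile normalization and 0.037 without the GC and length trend. In that order it was 0.051 and -0.001 for complex I, 0.044 and 0.102 for complex IV, 0.051 and 0.083 for complex V, and 0.025 for complex III in the latter. After quantile normalization the shares of complexes I to V differed by -0.397, -0.0721, 0.404, 0.168 and -0.103 percentage points.

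Of the 70 members with a positive log2 fold change, 31 turned negative with TPM, 14 after quantile normalization and 18 without the GC and length trend, and 0, 1 and 1 turned positive. Those named in the text follow. With TPM the values were -0.12 for Atp5a1, -0.078 for Atp5h, -0.041 for Atp5k, -0.094 for Atp5sl, -0.014 for Cox6a1, -0.050 for Cox7a2, -0.052 for Cox7c, -0.075 for Ndufa3, -0.006 for Ndufa4, -0.027 for Ndufaf3, -0.062 for Ndufv1, -0.058 for Sdhb, -0.046 for Uqcrb and -0.045 for Uqcrfs1. After quantile normalization they were -0.050 for Atp5a1, -0.022 for Atp5b, -0.092 for Atp5h, -0.015 for Atp5j, -0.043 for Atp5k, -0.012 for Atp5l, -0.069 for Cox6a1, -0.005 for Cox7c, -0.17 for Ndufa3, -0.031 for Ndufa4 and -0.001 for Uqcrb. Without the trend they were -0.058 for Atp5h, -0.074 for Atp5k, -0.022 for Cox7a2, -0.044 for Cox7c, -0.078 for Ndufa3, -0.019 for Ndufa4, -0.050 for Uqcrb and 0.019 for Ndufs7. The cause was not tested.

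Leaving out 1 library at a time gave 11 to 19 members higher and a median 0.099 to 0.161 above all genes. The range was 3 to 6 higher and 0.048 to 0.115 in complex I, 0 to 1 higher in complex II, and 1 to 3 and 0.098 to 0.177 in complex III. It was 3 to 6 and 0.142 to 0.226 in complex IV, and 3 to 6 and 0.114 to 0.210 in complex V. Atp5a1 ranged from -0.019 to 0.028 and Cox6b2, the member with the fewest fragments, from -0.472 to 0.094. Ndufaf2 ranged from -0.280 to 0.148, Ndufaf3 from -0.006 to 0.240, Ndufs7 from -0.031 to 0.009 and Atp5sl from -0.002 to 0.069. The lists outside the symbol rule ranged from 0.165 to 0.211 for carriers, 0 to 3 higher and 0.076 to 0.122 for assembly factors, 0.029 to 0.148 for coenzyme Q synthesis, 0 to 1 higher and 0 to 1 lower for regulators, and 2 to 5 higher, 0 to 1 lower and 0.127 to 0.180 for import.

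For carriers TPM gave 1 higher and 1 lower, and the median against all genes was 0.131 after quantile normalization and 0.101 without the trend. For assembly factors 1 was higher with no filter, quantile normalization or no trend, 0 higher and 1 lower with TPM, and the medians were 0.081 and 0.064. Coenzyme Q synthesis had 0 higher with TPM. Regulators had 0 higher with no filter, TPM or quantile normalization, and 0, 4 and 3 lower with no filter, TPM and no trend. Import genes had 3 higher with no filter, quantile normalization or the replicate block, 1 with TPM or no trend, 2 lower with TPM and 0 lower under the other 4 settings, and a median of 0.119 without the trend.

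With the replicate block 16 members were higher, with 1 in complex II (Sdhd, adjusted p 0.049), 4 in complex IV and 3 in complex V. Deviations from the genotype mean had correlations of 0.099, -0.069 and 0.021 between libraries of the same number. Of 6 libraries 3 correlated best with their own number. With 3 libraries a genotype these values cannot tell whether the numbers pair the libraries. A pseudocount of 0.1, the filter of 5 FPKM and median-ratio scaling kept 23, 23 and 21 of the 23 calls.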
